A study of Homo sapiens with 80 samples.

Results

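KI-JK is an ALK-positive anaplastic large cell lymphoma line, a mature T-cell lymphoma that carries an activated ALK kinase, and its source is labelled as pleural effusion. The comparison described here is KI-JK transduced with a CSNK2B overexpression vector against KI-JK transduced with the empty vector. Its members are the 3 CSNK2B vector libraries and the 3 empty vector libraries of 1 deposited count table, 6 of the 80 samples of the series. All 6 cultures were grown in RPMI1640 with 20% fetal bovine serum. The series is about resistance of T-cell lymphomas to the IMiD drugs, which turn the ubiquitin ligase receptor cereblon against ZFP91 and IKZF1. The vector backbone, the promoter, the number of clones and the time after transduction are not given in the sources used here, and no drug is named for these 6 libraries. The labels do not say that the libraries of a group came from separate cultures, so the p-values measure only the spread between these libraries, which may be technical.

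CSNK2B is the regulatory beta subunit of casein kinase 2 (CK2), a constitutively active serine/threonine kinase. A beta subunit dimer holds a pair of catalytic subunits, alpha (CSNK2A1) or alpha prime (CSNK2A2), and steers the holoenzyme towards part of its substrates. CK2 is known to phosphorylate chaperone partners, ribosomal transcription factors, IKAROS-family proteins and many components of growth signalling.

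Total RNA was sequenced, and each library held between 23073232 and 28927808 counts. Levels are given as CPM, a gene's counts relative to the library's total after TMM scaling, a change is the log2 ratio of CSNK2B vector to empty vector with its standard error (SE), and a gene is said to have risen or fallen when edgeR's quasi-likelihood test gave a Benjamini-Hochberg adjusted p under 0.05 over all genes tested. Markers of anaplastic large cell lymphoma were present: TNFRSF8, which encodes CD30, lay between 908 and 1046 CPM, and ALK between 362 and 427 CPM in the 6 libraries. CD79B and MPO had no read in any library, but markers of other lineages were not all silent. Among 9 listed B cell markers PAX5 was the 1 tested, at 8.68 to 11.9 CPM, and it fell (log2 change -0.36, adjusted p = 0.00912). Among the myeloid markers S100A9 lay between 339 and 441 CPM and ITGAX between 14.6 and 39.3 CPM.

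The libraries differed in one way that the groups do not explain. GFAP, a glial filament gene, was listed at 13.4, 3.11 and 12.8 CPM in the empty vector libraries and at 1.71, 0 and 24.3 CPM in the CSNK2B vector libraries. KRT8, a keratin of simple epithelia, stood at 11.5, 1.94 and 17.7 CPM against 0.132, 0.126 and 5.24 CPM. Empty vector 1, empty vector 3 and CSNK2B vector 3 were the libraries with more of these transcripts, and they also had the most genes detected, with 22504, 22445 and 22246 genes against 22004, 21433 and 21416 in the others. Of the 10 listed epithelial and stromal markers, 3 of 4 tested fell (KRT8, KRT18 and KRT19), and their summed level ranged from 5.87 to 32.0 CPM with empty vector and from 1.97 to 11.4 CPM with CSNK2B vector. The part of these transcripts in the results was not tested. Results were also computed without those 3 libraries, which leaves 1 empty vector library against 2 CSNK2B vector libraries. That fit assumes that the lone library varies like the others. Its counts are given with most of the lists, as the counts without the 3 libraries.

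The vector raised its target. CSNK2B stood at 18.3, 15.7 and 18.2 CPM in the empty vector libraries and at 81.2, 80.7 and 76.6 CPM in the CSNK2B vector libraries. The groups did not overlap, and the log2 change was 2.19 (SE 0.06, adjusted p = 2.56e-16), a fold of 4.57. The gene lies on chromosome 6 (hg38), from 31666080 to 31670067 in RefSeq GRCh38.p14. Of its 24 nearest tested neighbours, 12 on each side, 0 rose and 7 fell, with log2 changes between -0.80 and 0.58 and a median of -0.12. Over all genes tested 18.4% rose and 17.3% fell. The immediate neighbours GPANK1 and LY6G5B gave log2 changes of 0.09 (adjusted p = 0.399) and -0.02 (adjusted p = 0.964).

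Both catalytic subunit genes rose too, by smaller steps. CSNK2A1 was measured at 236, 233 and 245 CPM with empty vector and at 281, 271 and 283 CPM with CSNK2B vector, a log2 change of 0.23 (SE 0.04, adjusted p = 3.96e-05). CSNK2A2 was measured at 90.2, 96.7 and 101 CPM against 109, 114 and 122 CPM, a log2 change of 0.26 (SE 0.05, adjusted p = 2.26e-04). In both genes every CSNK2B vector library lay above every empty vector library. CSNK2A3, an intronless copy of CSNK2A1 whose reads cannot be fully told from it, stayed under 1 CPM and did not pass (log2 change 0.66, adjusted p = 0.317). Of the 6 tested subunits of the unrelated casein kinase 1 family, 1 rose and 2 fell, with log2 changes between -0.25 and 0.19. The share called was 50%, beside 35.7% of all genes tested.

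**Figure D1:**
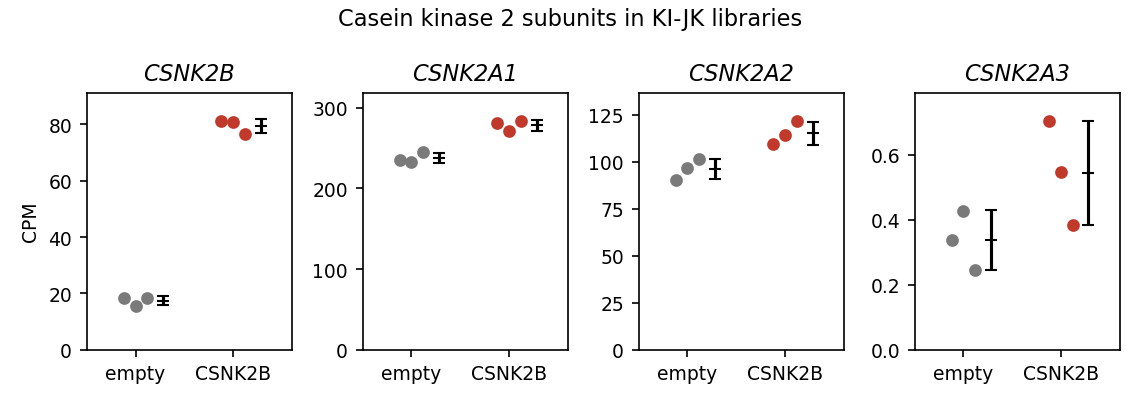
CPM of the casein kinase 2 subunits in each KI-JK library (points) with the mean and SD of 3 libraries beside them, for empty vector (grey) and CSNK2B vector (red); each axis starts at 0. CSNK2B rises from 15.7 to 18.3 CPM to 76.6 to 81.2 CPM, and CSNK2A1 and CSNK2A2 shift upwards without overlap.

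Changes were widespread and mostly small. Of 14104 genes tested, 2591 rose (18.4%) and 2441 fell (17.3%), so that 35.7% of genes were called. The median size of a called change was 0.28 on the log2 scale, a fold of 1.22. The groups did not overlap for 6433 genes (45.6% of those tested). At a change of at least 2-fold the balance was unequal: 56 genes rose (0.397%) and 208 fell (1.47%), 1.87% in all. The first principal component, with 42.8% of the variance, separated the groups. Without the 3 libraries named above, 1920 genes rose and 1601 fell.

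The direction of the calls varied with the level of the gene. When the genes were divided by mean level into 4 classes of equal size, 38.6% of the highest class rose and 18.5% fell, whereas in the lowest class 1.84% rose and 7.83% fell. That lowest class held 212 of the 264 genes called with at least a 2-fold change. None of the gene lists below was matched for level. A share called above the 35.7% of all genes may therefore go with the level of the members, which was not tested. The part of the glial and keratin transcripts in the excess of large falls was not tested.

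**Figure D2:**
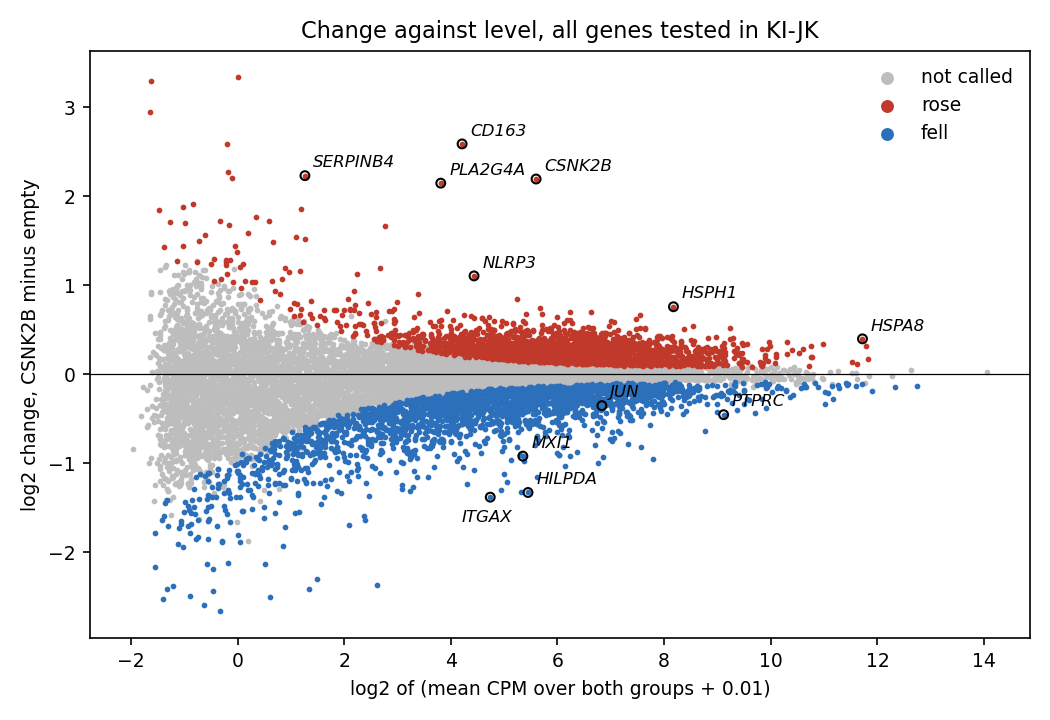
Log2 change (CSNK2B minus empty vector) of each of the 14104 genes tested in KI-JK against the log2 of its mean CPM plus 0.01, with genes that rose in red, that fell in blue and the rest in grey. Most large changes lie at low levels, with CSNK2B, CD163, PLA2G4A, ITGAX and HILPDA among the exceptions, and rises outnumber falls among the genes of high level.

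The genes of the drug pathway that frames the series moved little. ZFP91, a zinc finger protein degraded through cereblon in the presence of IMiDs, was measured at 89.0, 93.7 and 97.4 CPM with empty vector and at 104, 103 and 102 CPM with CSNK2B vector. It rose by a log2 change of 0.14 (SE 0.04, adjusted p = 0.0157), and without empty vector 1 the adjusted p was 0.0943. Without the 3 libraries named above it was 0.0987. IKZF1, which encodes the lymphoid transcription factor IKAROS, did not pass the test (342, 342 and 358 CPM against 335, 321 and 342 CPM, log2 change -0.06, adjusted p = 0.182). IKZF3 had 0, 0 and 0 reads with empty vector and 2, 2 and 1 reads with CSNK2B vector, too few for a test. CRBN, which encodes cereblon, stood at 19.2, 18.3 and 21.6 CPM against 18.2, 20.7 and 21.8 CPM, with overlapping groups (log2 change 0.04, SE 0.08, adjusted p = 0.752).

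In the ligase machinery as a whole more genes rose than fell. Of 26 tested genes of the cullin 4 ligase of cereblon and its neddylation and signalosome regulators, with GLUL and USP15 counted among them, 13 rose and 3 fell (61.5% called). The median log2 change was 0.13, beside -0.01 over all genes tested and 0.06 in the highest of the 4 level classes. The list was not matched for level. DDB1, the adaptor that holds cereblon on the cullin, rose from 324, 317 and 335 CPM to 368, 367 and 369 CPM (log2 change 0.18, adjusted p = 3.02e-04). USP15, a deubiquitinase, rose from 63.2, 62.6 and 62.7 CPM to 78.5, 77.9 and 81.8 CPM (log2 change 0.34, adjusted p = 5.69e-06). GLUL, the glutamine synthetase gene and an endogenous substrate of cereblon, rose by 0.44 (SE 0.05, adjusted p = 5.87e-07). Among 16 tested genes for proteins degraded under IMiDs or related molecules, 5 rose and 2 fell: the translation termination factor gene GSPT1 rose by 0.31 (SE 0.04), and the zinc finger gene ZNF692 fell by 0.42 (SE 0.07). Of all genes tested, 35.7% were called, and of these 16 genes 43.8%. Of them 2 rose and 2 fell without the 3 libraries, as did 11 and 2 of the ligase genes.

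Factors of the BATF3, IRF4 and MYC circuit of this lymphoma did not share a direction. BATF3, an AP-1 partner factor, was measured at 543, 509 and 535 CPM against 567, 526 and 510 CPM, and IRF4 at 681, 704 and 725 CPM against 689, 676 and 691 CPM. Neither passed (log2 changes 0.01 and -0.04, adjusted p = 0.821 and 0.427), and for BATF3 the sign turned with library-size scaling. MYC, a transcription factor of growth and ribosome production, rose from 136, 134 and 137 CPM to 159, 158 and 157 CPM, with a log2 change of 0.22 (SE 0.04, adjusted p = 6.66e-05). Its partner MAX rose by 0.28 (SE 0.06), and the antagonists MXI1 and MXD3, which compete for MAX, fell by 0.92 (SE 0.06) and 1.12 (SE 0.08). JUN, the founding AP-1 subunit, fell from 126, 128 and 129 CPM to 105, 100 and 95.5 CPM (log2 change -0.35, SE 0.04, adjusted p = 1.15e-06), and every CSNK2B vector library lay below every empty vector library.

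Factors of ribosome biogenesis, the making of ribosomal RNA and its assembly with proteins in the nucleolus, rose almost throughout. Rises were called for 29 of the 32 factors and falls for 0 (90.6% called, beside 35.7% of all genes tested), and the median log2 change was 0.37. RRP12, a factor of pre-ribosome export, rose from 140, 144 and 149 CPM to 231, 239 and 217 CPM (log2 change 0.67, SE 0.04, adjusted p = 7.58e-11). POLR1A, the largest subunit of RNA polymerase I, rose from 132, 137 and 140 CPM to 187, 185 and 194 CPM (log2 change 0.47, SE 0.04). WDR43 and MYBBP1A, both nucleolar proteins, rose by 0.52 (SE 0.04) and 0.55 (SE 0.04). Only FBL, NHP2 and NOP2 did not pass, and without the 3 libraries named above 30 of the factors rose. The genes of the ribosomal proteins themselves did not follow: 19 of 78 were called lower and 1 higher, the median log2 change being -0.06, and RPL28 fell by 0.21 (SE 0.03). The 25.6% of these 78 genes that were called lies below the 35.7% of all genes tested, so no common fall is read from the count. With the GFAP and keratin level as a covariate 26 of them fell, and without the 3 libraries 12.

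The E-box CACGTG, the site of MYC with MAX and of related factors, was searched on both strands of the RefSeq promoter windows of 300 bases (250 before the start and 50 after it), which were matched for 9651 of the 14104 genes tested (68.4%). It was found in 9 of 23 matched promoters of the ribosome biogenesis factors that rose (39.1%). It was in 14.3% of promoters of all genes that rose, in 8.18% of those that fell and in 10.3% of all. Among the heat shock chaperones that rose the share was 20%. For the cholesterol, hypoxia and interferon genes that fell it was 25%, 15.4% and 6.67%. Rises were called for 29 of the 32 biogenesis factors, so their share describes the list and not the change. UTP20, a nucleolar processing factor on chromosome 12, is shown for its E-box next to the start. It rose from 57.7, 60.3 and 68.6 CPM to 87.3, 92.8 and 97.5 CPM (log2 change 0.57, SE 0.06). The 250 bases before its start (GRCh38.p14, plus strand, chr12:101279855-101280104) follow, with the E-box in capitals.
UTP20: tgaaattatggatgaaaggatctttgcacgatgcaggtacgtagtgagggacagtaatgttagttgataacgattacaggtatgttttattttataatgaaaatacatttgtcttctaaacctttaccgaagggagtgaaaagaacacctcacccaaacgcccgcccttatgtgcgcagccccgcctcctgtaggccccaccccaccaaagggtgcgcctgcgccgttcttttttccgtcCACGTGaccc

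Many chaperones of the cytosol rose as well. Heat shock chaperones fold new and damaged proteins and are driven by the factor HSF1. Of 21 tested, 11 rose and 1 fell, so that 57.1% were called, beside 35.7% of all genes tested. HSPH1, a nucleotide exchange factor of HSP70, rose from 216, 209 and 218 CPM to 357, 364 and 368 CPM (log2 change 0.76, SE 0.04, adjusted p = 6.51e-13). HSPA8, the constitutive HSP70, rose from 2991, 2837 and 2897 CPM to 3821, 3791 and 3882 CPM (log2 change 0.40, SE 0.03). DNAJA1, a co-chaperone of HSP70, and CHORDC1, a co-chaperone of HSP90, rose by 0.40 (SE 0.03) and 0.46 (SE 0.04), and HSP90AA1 by 0.32 (SE 0.03). The stress-inducible copies gave other values: HSPA1A fell by 0.17 (SE 0.05) and HSPA1B did not pass (log2 change 0.03), and reads of these near-identical genes can be split between them. In the fit without the 3 libraries 11 chaperones rose.

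3 motifs were chosen for a search after the values were seen. The hypoxia core ACGTG, which CACGTG contains, was in 5 of 13 matched promoters of the hypoxia and glycolysis genes that fell (38.5%), in 56.5% of those of the ribosome biogenesis factors that rose and in 27.3% of all. The sterol element TCACNCCAC was in 1 of 12 matched promoters of the cholesterol genes that fell (8.33%) and in 1.01% of all. The heat shock element core GAANNTTC was present in 3 of 10 matched promoters of the chaperones that rose (HSPA8, DNAJA1 and CHORDC1). It was in 4.43% of all promoters and in 4.46% of those of all genes that rose. It was also in 3 of 15 promoters of the interferon response genes that fell (20%). The ribosome biogenesis factors that rose had it in 4.35%, and the hypoxia and cholesterol genes that fell in 7.69% and 0%. The chaperone list holds genes known to be driven by HSF1, so its share describes the list and not the change. HSPA8 and CHORDC1 are shown, since each has more than 1 match: HSPA8 (minus strand, chr11:123062137-123062386) has 2 and CHORDC1 (minus strand, chr11:90223050-90223299) has 3, in capitals, in the 250 bases before the start (GRCh38.p14). The HSPA8 window lies inside the RefSeq span of that gene (123057489 to 123062462), so its start is an internal one.
HSPA8: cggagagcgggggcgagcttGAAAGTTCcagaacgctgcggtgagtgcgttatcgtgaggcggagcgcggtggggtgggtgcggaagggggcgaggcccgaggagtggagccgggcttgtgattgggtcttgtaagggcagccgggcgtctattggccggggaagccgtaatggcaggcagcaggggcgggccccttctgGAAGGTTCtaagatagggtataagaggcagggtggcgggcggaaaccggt
CHORDC1: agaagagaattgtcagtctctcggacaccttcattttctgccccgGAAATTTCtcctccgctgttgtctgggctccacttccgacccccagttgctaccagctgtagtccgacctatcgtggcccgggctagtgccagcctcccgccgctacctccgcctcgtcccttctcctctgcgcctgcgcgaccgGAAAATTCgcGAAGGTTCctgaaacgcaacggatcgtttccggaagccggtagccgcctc

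Chaperones of the endoplasmic reticulum moved the same way. Of 19 tested genes of endoplasmic reticulum stress, 12 rose and 1 fell, so that 68.4% were called, beside 35.7% of all genes tested. HSPA5, which encodes the chaperone BiP, rose from 915, 875 and 927 CPM to 1121, 1126 and 1127 CPM (log2 change 0.31, SE 0.03), and HYOU1, its exchange factor, rose by 0.42 (SE 0.04). DNAJC3 and DNAJB11, co-chaperones of BiP, rose by 0.46 (SE 0.05) and 0.37 (SE 0.04). EDEM1, a factor of the disposal of misfolded glycoproteins, was the member that fell (log2 change -0.30). Genes of the amino acid response and serine synthesis also rose more often than they fell, with 13 against 3 of 27 tested (59.3% called). The counts without the 3 libraries were 11 and 1 for endoplasmic reticulum stress and 12 and 2 for the amino acid response. SLC7A5, an exchanger of large neutral amino acids, rose by 0.23 (SE 0.03) and SESN2, a leucine sensor, by 0.49 (SE 0.05), while DDIT4, an inhibitor of mTORC1 induced by hypoxia, fell by 0.46 (SE 0.05).

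**Figure D3:**
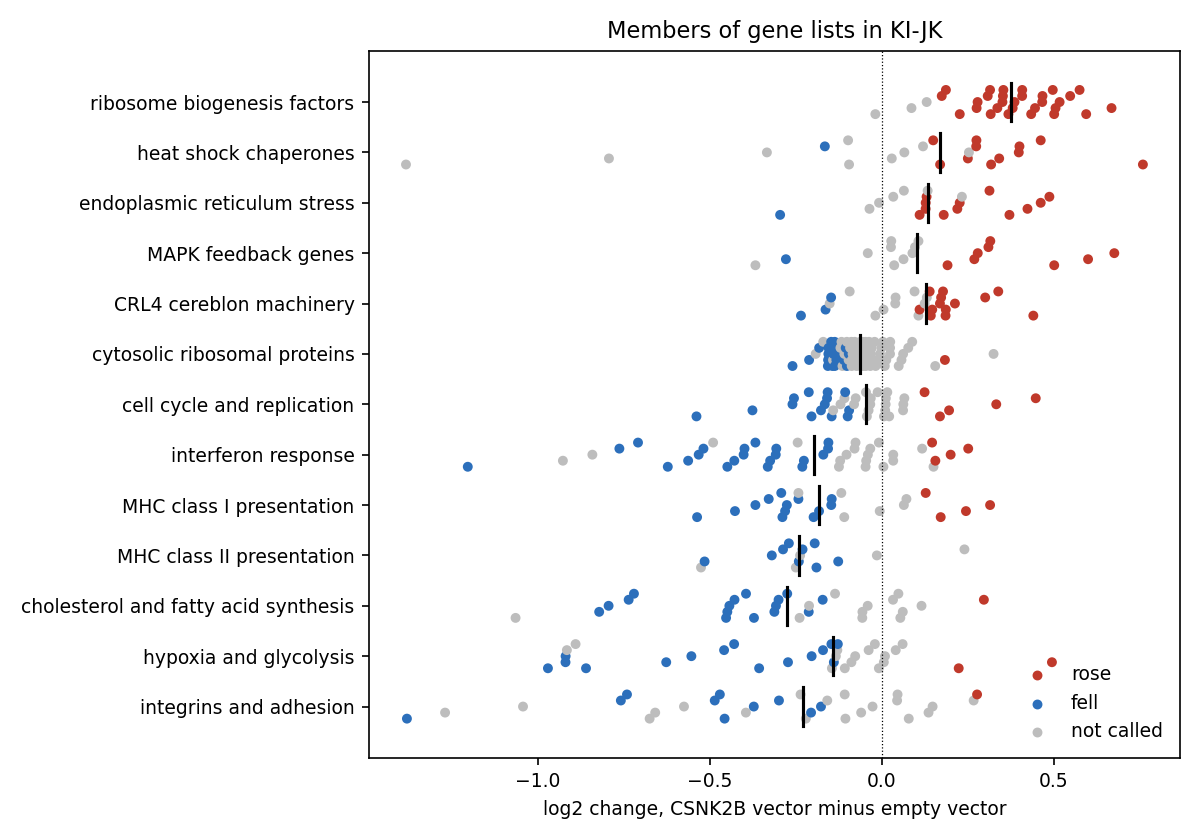
Log2 change (CSNK2B minus empty vector) of each tested member of 13 gene lists in KI-JK, with red points for genes that rose, blue for genes that fell, grey for genes not called and a black bar at the median of each list. The ribosome biogenesis factors lie almost wholly to the right of 0, and the lists of antigen presentation, cholesterol synthesis and hypoxia lie mostly to the left.

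Feedback genes of the MAP kinase pathway, which are transcribed when ERK is active and then damp it, rose in 8 of 18 tested cases and fell in 1. The share called was 50%, beside 35.7% of all genes tested (18.4% rose and 17.3% fell). SPRY4, an inhibitor of receptor signalling, rose from 23.6, 25.4 and 24.7 CPM to 39.9, 37.4 and 34.7 CPM (log2 change 0.60, SE 0.07, adjusted p = 3.84e-07). DUSP4, an ERK phosphatase, rose by 0.31 (SE 0.04), SPRED1 by 0.31 (SE 0.04) and the transcription factor gene ETV5 by 0.50 (SE 0.08). DUSP6, another ERK phosphatase, did not pass (log2 change -0.04). Of the members 6 rose and 0 fell without the 3 libraries.

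Genes of the interferon response, antiviral effectors and their regulators, fell in 21 of 44 tested cases and rose in 4, with a median of -0.20. The share called was 56.8%, beside 35.7% of all genes tested. GBP2, an interferon-induced GTPase, fell from 93.8, 90.3 and 84.9 CPM to 59.9, 58.2 and 56.9 CPM (log2 change -0.62, SE 0.05, adjusted p = 3.42e-09). IFITM1, a membrane protein that blocks viral entry, fell from 201, 185 and 193 CPM to 135, 139 and 129 CPM (log2 change -0.52, SE 0.04). STAT2, which carries the type I interferon signal with IRF9, fell from 47.1, 53.01 and 50.7 CPM to 36.2, 35.0 and 33.3 CPM (log2 change -0.53, SE 0.06). The falls numbered 14 and the rises 1 without the 3 libraries.

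The interferon element (GAAA and again GAAA after a gap of 2 bases, both strands) was found in 9 of 15 matched promoters of the interferon response genes that fell (60%), against 2.93% of all promoters. This list holds genes known for such elements, so the share describes the list and not the change. IFITM1 (plus strand, chr11:313790-314039) and EPSTI1 (minus strand, chr13:42992242-42992491) are shown for an element within the last 50 bases before the start; the element is in capitals in the 250 bases before the start (GRCh38.p14). EPSTI1, an interferon-induced gene of lower level, fell from 5.02, 7.19 and 5.53 CPM to 2.68, 1.97 and 3.02 CPM (log2 change -1.20, SE 0.19).
IFITM1: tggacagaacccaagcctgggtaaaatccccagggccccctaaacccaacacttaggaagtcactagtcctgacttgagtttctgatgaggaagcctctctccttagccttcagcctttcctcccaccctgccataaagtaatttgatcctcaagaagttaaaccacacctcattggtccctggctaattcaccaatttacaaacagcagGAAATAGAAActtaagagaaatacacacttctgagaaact
EPSTI1: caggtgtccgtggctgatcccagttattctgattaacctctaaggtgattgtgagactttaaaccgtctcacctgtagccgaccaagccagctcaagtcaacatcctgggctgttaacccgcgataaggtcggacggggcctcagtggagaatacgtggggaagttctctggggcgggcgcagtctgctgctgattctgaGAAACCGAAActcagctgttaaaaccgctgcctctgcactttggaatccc

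Antigen presentation genes fell more often than they rose. Of 23 tested genes of the MHC class I pathway, which shows peptides of the cytosol to CD8 T cells, 13 fell and 4 rose. The share called was 73.9%, beside 35.7% of all genes tested. B2M, the light chain of class I molecules, fell from 859, 842 and 827 CPM to 676, 685 and 708 CPM (log2 change -0.29, SE 0.03), and the heavy chain gene HLA-B fell by 0.37 (SE 0.05). Those that rose were the folding factor genes CALR, PDIA3 and CANX of the endoplasmic reticulum and the peptide transporter gene TAP2. Of 14 tested genes of the class II pathway, 9 fell and 0 rose, so that 64.3% were called. HLA-DRA, the alpha chain of HLA-DR, fell from 753, 725 and 710 CPM to 625, 613 and 626 CPM (log2 change -0.23, SE 0.03), while their master regulator CIITA did not pass (log2 change -0.01). HLA genes are near-identical in part, so the split of reads among them is uncertain. Omitting the 3 libraries, 12 genes of class I fell and 3 rose, and 7 of class II fell.

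Genes of cholesterol synthesis, which the factor SREBP2 switches on when sterols are low, fell in 16 of 29 tested cases, and FASN, of fatty acid synthesis, was the single gene that rose. The share called was 58.6%, beside 35.7% of all genes tested. INSIG1, which holds SREBP2 in the endoplasmic reticulum, fell from 167, 161 and 171 CPM to 101, 96.3 and 105 CPM (log2 change -0.72, SE 0.04, adjusted p = 2.62e-11). MSMO1, an enzyme of the pathway, fell from 58.2, 62.5 and 60.2 CPM to 35.0, 34.2 and 35.1 CPM (log2 change -0.79, SE 0.05). SREBF2, the gene of SREBP2, fell by 0.40 (SE 0.04), and SREBF1 did not pass (log2 change 0.05). Falls without the 3 libraries numbered 13.

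Hypoxia and glycolysis genes, many of them targets of the HIF factors, fell in 15 of 32 tested cases and rose in 2. The share called was 53.1%, beside 35.7% of all genes tested. CA12, a membrane carbonic anhydrase, fell from 93.8, 99.5 and 101 CPM to 49.3, 54.2 and 51.9 CPM (log2 change -0.92, SE 0.05, adjusted p = 6.52e-12). PFKFB4, a regulator of glycolysis, fell from 55.8, 55.3 and 52.3 CPM to 28.4, 28.1 and 27.01 CPM (log2 change -0.97, SE 0.06). ENO2, a neuronal-type enolase, fell by 0.63 (SE 0.04), and MXI1 (above) is also on this list. The rises were HIF1A (log2 change 0.22) and HK2 (log2 change 0.49), and LDHA, SLC2A1 and VEGFA did not pass (log2 changes 0.01, -0.01 and -0.13). Among the genes named for their size, HILPDA, a lipid droplet protein induced by hypoxia, and MIR210HG, the host of the hypoxia-induced miR-210, had log2 changes of -1.33 (SE 0.06) and -1.64 (SE 0.16), and both fell. With the 3 libraries left out 12 genes of the list fell and 2 rose.

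The largest rises among genes of adequate level were headed by CD163, a scavenger receptor for haptoglobin and haemoglobin best known from macrophages. It was measured at 5.99, 5.17 and 4.68 CPM with empty vector and at 31.2, 33.5 and 30.5 CPM with CSNK2B vector (log2 change 2.59, SE 0.09, adjusted p = 1.31e-14). PLA2G4A, the cytosolic phospholipase that frees arachidonic acid, rose from 5.02, 4.94 and 5.53 CPM to 23.3, 22.8 and 22.6 CPM (log2 change 2.15, SE 0.10). NLRP3, an inflammasome sensor, rose from 12.6, 12.98 and 15.6 CPM to 29.3, 30.6 and 28.6 CPM (log2 change 1.10, SE 0.08), and no empty vector library reached a CSNK2B vector library in any of these genes. IL1RN, the interleukin-1 receptor antagonist, rose by 1.67 (SE 0.17). Of 11 myeloid markers 5 were tested, and only CD163 and S100A9 rose, while ITGAX fell. The rise of S100A9 was small (log2 change 0.19) and its groups overlapped. It lost its call with DESeq2 (adjusted p = 0.0711) and, in edgeR's test, with the GFAP and keratin covariate (adjusted p = 0.0793). MPO had no read, and CD14, LYZ, CD68 and CD33 stayed below 1 CPM.

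SERPINB4, a serine protease inhibitor, rose from 0.844, 0.972 and 0.692 CPM to 3.78, 4.11 and 3.96 CPM, and TM4SF1, a tetraspanin-like membrane protein, from 1.14, 0.583 and 1.22 CPM to 3.60, 2.98 and 4.03 CPM. Both are abundant in SU-DHL-1, the other line of the series with this vector, at 459 and 608 CPM, and CD163 stands at 578 CPM there. The 48 genes with at least 50 CPM in SU-DHL-1 and under 2 CPM in KI-JK with empty vector lay at a median of 0.147%, 0.117% and 0.151% of their SU-DHL-1 level in the empty vector libraries and of 0.107%, 0.0331% and 0.133% in the CSNK2B vector libraries. Against the same level, SERPINB4 went from 0.182% to 0.86%, TM4SF1 from 0.161% to 0.582% and CD163 from 0.913% to 5.49%. The part of SU-DHL-1 RNA in these rises was not tested.

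The AP-1 site TGANTCA was found in 8 of 33 matched promoters of genes that rose at least 2-fold (24.2%), against 4.61% of promoters of all genes that rose, 5.5% of those that fell at least 2-fold and 4.81% of all. Those genes were IL1RN, SLC43A2, SERPINB2, DMD, IL1RL1, ZNF564, EIF5AL1 and FOXD4L1. IL1RN (plus strand, chr2:113117721-113117970, GRCh38.p14) rose from 3.33, 2.22 and 4.27 CPM to 9.84, 10.1 and 11.2 CPM. The start used lies inside the RefSeq span of the gene (113099360 to 113134014), and which start KI-JK uses was not examined. The 250 bases before that internal start are shown with the site in capitals.
IL1RN: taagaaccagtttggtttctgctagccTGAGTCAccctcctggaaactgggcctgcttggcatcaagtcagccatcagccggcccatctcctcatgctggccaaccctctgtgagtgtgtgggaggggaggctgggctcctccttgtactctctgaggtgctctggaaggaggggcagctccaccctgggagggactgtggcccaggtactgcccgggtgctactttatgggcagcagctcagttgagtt

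The largest falls included that of ITGAX, the integrin CD11c, which fell from 39.2, 39.3 and 37.2 CPM to 14.9, 14.9 and 14.6 CPM (log2 change -1.38, SE 0.07, adjusted p = 1.18e-12). RASSF4, a member of the RAS association domain family, fell from 57.8, 58.1 and 54.8 CPM to 20.3, 24.5 and 23.6 CPM (log2 change -1.32, SE 0.07). HILPDA fell from 63.6, 61.5 and 62.1 CPM to 24.9, 24.0 and 25.6 CPM. The groups did not overlap in any of these 3 genes. Lower in level, the long non-coding RNA BLACAT1 fell by 1.70 (SE 0.19) and the secreted protease inhibitor SLPI by 1.37 (SE 0.16). Of 30 tested integrins and adhesion molecules, 10 fell and 1 rose; the 36.7% called is close to the 35.7% of all genes, and nothing about the list is read from it. Leaving out the 3 libraries, 9 fell and 2 rose. The homing receptor gene CCR7 fell by 0.99 (SE 0.12).

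**Figure D4:**
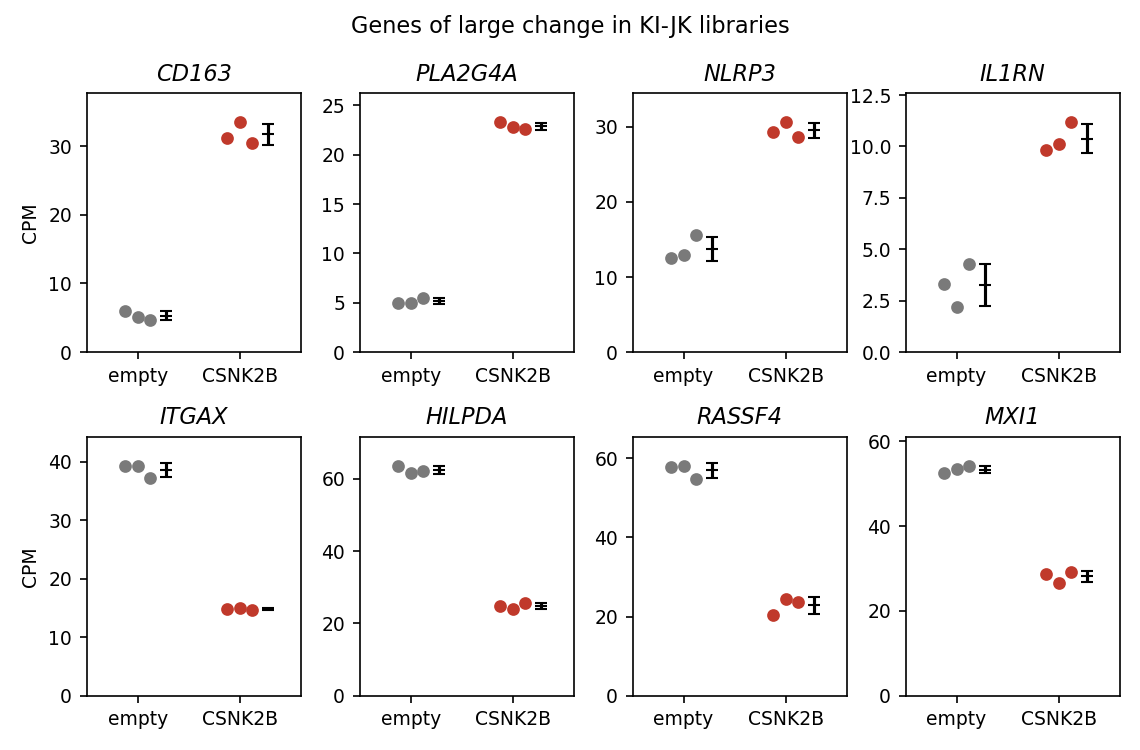
CPM of 8 genes of large change in each KI-JK library (points) with the mean and SD of 3 libraries beside them, for empty vector (grey) and CSNK2B vector (red); each axis starts at 0. CD163, PLA2G4A, NLRP3 and IL1RN are higher in all 3 CSNK2B vector libraries, and ITGAX, HILPDA, RASSF4 and MXI1 are lower in all 3.

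Genes of T-cell identity were divided, with 3 rises and 3 falls among 15 tested, 40% of them beside the 35.7% called over all genes. Without the 3 libraries 2 rose and 1 fell. PTPRC, the CD45 phosphatase, fell from 637, 637 and 650 CPM to 456, 461 and 487 CPM (log2 change -0.45, SE 0.03, adjusted p = 1.93e-09). The inhibitory receptor genes LAIR1 and HAVCR2, which encodes TIM-3, fell by 0.73 (SE 0.04) and 0.54 (SE 0.05), whereas CD274, which encodes PD-L1, rose by 0.11 (SE 0.04, adjusted p = 0.0229), a call that 6 of the other settings did not keep. Of 35 tested cytokine and chemokine receptors, 12 fell and 6 rose, 51.4% of them beside 35.7% of all genes tested. The interleukin-4 and interleukin-6 receptor genes IL4R and IL6R fell by 0.30 (SE 0.03) and 0.47 (SE 0.04). The T-cell surface gene CD5 rose by 0.44 (SE 0.07). Of the cytotoxic granule genes, GZMB rose from 1437, 1383 and 1371 CPM to 1767, 1664 and 1682 CPM (log2 change 0.29, SE 0.03), and NKG7 fell by 0.23 (SE 0.04).

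Cell cycle genes gave small changes in both directions, with 5 rises and 14 falls among 39 tested, 48.7% of them beside 35.7% of all genes tested. CCNE1, the cyclin of S-phase entry, rose by 0.45 (SE 0.08), and the cyclin-dependent kinase inhibitor genes CDKN1A and CDKN1B fell by 0.26 (SE 0.04) and 0.38 (SE 0.06). The proliferation marker gene MKI67 did not pass (log2 change 0.01). Without the 3 libraries named above, 7 members fell and 3 rose. By position, chromosome 19 stood lowest with a median of -0.10, with 12.9% of its 767 tested genes called up and 29.3% called down.

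The same vector contrast in SU-DHL-1, an ALK-positive line grown in 10% serum, was used to ask where KI-JK differs. CSNK2B rose there by 3.06 (SE 0.05), and the responses differed by -0.86 (KI-JK minus SU-DHL-1, adjusted p = 4.1e-09), so the rise of the target was not matched between the lines. In SU-DHL-1 466 of 13727 genes rose (3.39%) and 459 fell (3.34%), 6.74% in all. The response differed for 1671 genes above 0 (10.7%) and 1313 below 0 (8.44%) of 15564 tested, 19.2% in all, by an interaction term in edgeR over 12 libraries. Of 12554 genes tested in both lines, 127 rose in both, which is 5% of the KI-JK rises and 29.5% of the SU-DHL-1 rises, and 189 fell in both (8.55% and 45%), while 51 rises and 64 falls of KI-JK were called the opposite way in SU-DHL-1. Across these genes the correlation of the log2 changes was 0.08 (Pearson) and 0.12 (Spearman), given as a description, since genes are not independent.

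Some of the largest rises of KI-JK differed from the response of SU-DHL-1. CD163, PLA2G4A and TM4SF1 changed in SU-DHL-1 by -0.01, -0.61 and -0.28, and the differences (KI-JK minus SU-DHL-1) were 2.61 (SE 0.08, adjusted p = 2.28e-20), 2.77 (SE 0.11, adjusted p = 1.4e-17) and 2.15 (SE 0.18, adjusted p = 6.77e-10). CSNK2A1 and CSNK2A2 did not pass in SU-DHL-1 (log2 changes -0.01 and -0.02), and their responses differed by 0.24 and 0.29. Of the 32 ribosome biogenesis factors, 0 rose in SU-DHL-1 (median 0.01), and HSPA8, for one, changed by 0.06 there. Hypoxia and glycolysis genes fell in 13 of 32 tested cases in SU-DHL-1 too, with CA12 at -0.49 and PFKFB4 at -0.30. PTPRC fell in both lines, at unlike levels. In KI-JK it fell by 0.45, from a mean of 641 CPM to 468 CPM, and in SU-DHL-1 by 1.34, from only 2.86 CPM to 1.14 CPM. The difference was 0.90 (SE 0.18, adjusted p = 3.90e-04, interaction term in edgeR). The genes of a semaphorin (SEMA4D), an annexin (ANXA1) and a myosin (MYO1F) fell by 1.03, 0.53 and 0.54 in KI-JK and by 0.50, 0.54 and 0.65 in SU-DHL-1. SEPTIN11, a cytoskeletal filament gene, rose by 1.16 (SE 0.28) and by 1.46 (SE 0.11).

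**Figure D5:**
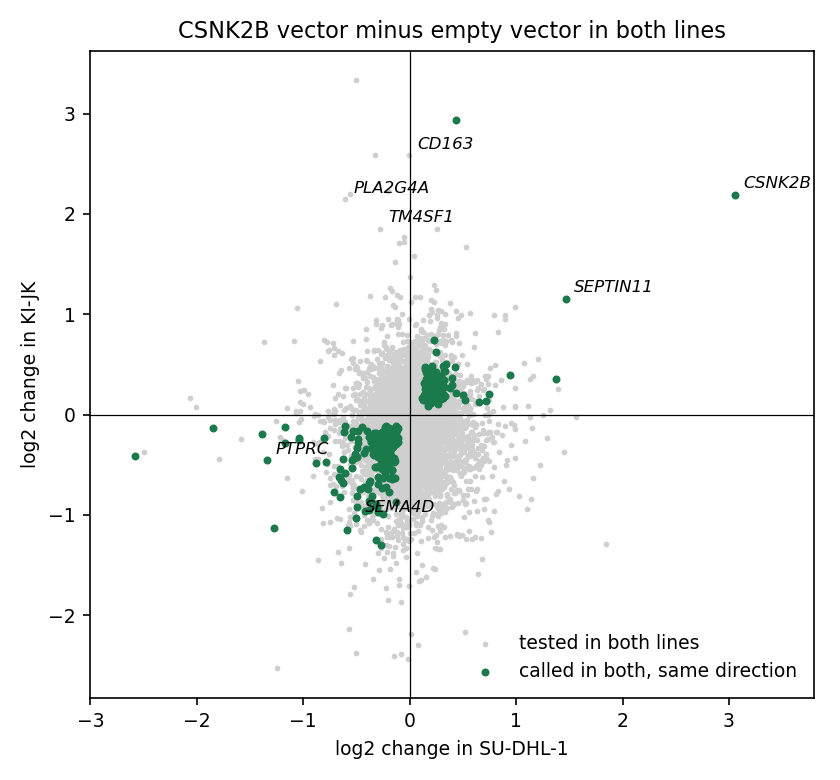
Log2 change of each gene tested in both lines, CSNK2B vector minus empty vector, in SU-DHL-1 (horizontal) and KI-JK (vertical), with genes called in both lines in the same direction in green. CSNK2B and SEPTIN11 are high in both, and CD163, PLA2G4A and TM4SF1 are high on the KI-JK axis with SU-DHL-1 values of -0.01, -0.61 and -0.28.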

How the data were processed

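Gene counts were deposited by the authors, one table per cell line, as raw counts. Per the submitters' processing notes the tools were STAR 2.6.1d, DESeq2 1.20.0 and edgeR 3.24.3 with hg38; the counting tool and annotation are not given in the sources used here. Genes were filtered with filterByExpr, scaled by TMM and tested with edgeR 4.0.16 (glmQLFit and glmQLFTest, R 4.3.3) on 3 against 3 libraries, with Benjamini-Hochberg adjustment at 0.05; SE is the size of the log2 change over the square root of F. Both lines were fitted together for the interaction. With 3 libraries a group an exact permutation test of one gene cannot go below p = 0.1. Gene positions are from RefSeq (GRCh38.p14; 86.9% of genes tested matched). The fit was tested on simulated data. No 2 libraries agreed within counting noise (chi-square per degree of freedom 3.28 to 5.36).

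Named genes were the CK2, IMiD and transcription factor genes of the design, up to 12 per direction with the largest change (mean log2 CPM of at least 1, groups not overlapping), up to 4 per list, and 12 neighbours on each side of CSNK2B; others are named for a promoter, for a statement about a list or because both lines moved, and were chosen after their values were seen. The members and lists were chosen with earlier results of these data known. DESeq2 1.42.0, other scalings and filters, a replicate block and left-out libraries were the alternatives; the fits without 3 libraries and with a GFAP and keratin covariate were chosen after seeing the data.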

Additional observations from a re-analysis of the deposited data

Results flagged for a closer look

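The response to the CSNK2B vector differed between KI-JK and SU-DHL-1, by an interaction term in edgeR with Benjamini-Hochberg adjustment, for the genes below (KI-JK minus SU-DHL-1, log2). It was above 0 for SERPINB2 (2.91), PLA2G4A (2.77), CD163 (2.61), SERPINB4 (2.44) and TM4SF1 (2.15), and smaller for CSNK2A2 (0.29), CSNK2A1 (0.24), ZFP91 (0.19), IRF4 (0.16) and MYC (0.16). It was below 0 for KRT18 (-2.20), CSNK2B (-0.86), JUN (-0.28) and IKZF1 (-0.25). SERPINB2 is a gene of very low level, so its difference is imprecise (SE 0.55). In KI-JK it had 4, 10 and 4 reads with empty vector and 32, 41 and 38 with CSNK2B vector. Its means in SU-DHL-1 were 1.29 and 1.05 CPM. KRT18 is one of the keratin genes that differ between libraries of one group, and DESeq2 gave its difference an adjusted p of 0.346. Of the small differences, that of ZFP91 lost its call in 10 alternatives, that of MYC in 9 and that of IRF4 in 6; with library-size scaling their adjusted p in edgeR's test was 0.113, 0.0646 and 0.0537. The serum content of the cultures and the level that CSNK2B reached differ between the lines, and cannot be told apart from the line itself.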

How the results depend on the processing

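Leaving out 1 library at a time, 4246 to 4666 genes were called in KI-JK (2195 to 2404 rose, 2051 to 2275 fell), 2303 to 2874 genes differed between the lines, and the log2 change of CSNK2B lay between 2.12 and 2.23. DESeq2 called 4590 genes, library-size scaling 5034 and the GFAP and keratin covariate 4417. With 1 empty vector library against 2 CSNK2B vector libraries, 1601 genes fell, over 1.5 times fewer than with all libraries; fewer libraries were fitted there. Counts within some gene lists also moved by over 1.5 times in that fit. They are given with most of the lists, but not with those of casein kinase 1, the Notch pathway and the cytokine receptors, among others. The labels do not say that the replicate number pairs the libraries. Same-number correlations were 0.00542, 0.177 and 0.166. The libraries numbered 2 and 3 correlated best with the same number in the other group, and those numbered 1 did not. With the number as a replicate block 5348 genes were called in KI-JK and 3456 differed between the lines, against 5032 and 2984 without it. Of 179 called genes among the 200 named and tested, 149 kept their call and direction in every alternative that tested them, and 30 lost the call at least once. Many of these genes were named for their size or small p in the main fit, and the alternatives reuse its libraries. The count therefore does not measure how stable the 5032 calls are. Not every alternative tested all 200: without the genes on chromosomes 7 and 17 it was 187.

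Signs turned mostly for genes that were not called; the cause was not tested. Leaving out 1 library at a time, the log2 change ran from -0.0228 to 0.112 for CRBN, from -0.0306 to 0.0455 for BATF3, from -0.110 to 0.606 for ATP6V1G2, from -0.0400 to 0.0067 for PRRC2A, from -0.168 to 0.263 for APOM, from -0.179 to 0.244 for LY6G5B, from -0.0554 to 0.0264 for LSM2 and from -0.0215 to 0.0899 for HSPA1B. BATF3 gave -0.0071 with library-size scaling, LSM2 0.0057 without the low-count filter and APOM -0.203 with the covariate. With 1 empty vector library against 2 CSNK2B vector libraries the values were -0.0036 for MT-CYB, the one called gene to turn, 0.0928 for LTB, 0.0042 for PRRC2A, -0.0512 for APOM, 0.221 for LY6G5B, -0.404 for LY6G5C, 0.0802 for ABHD16A, 0.0488 for LSM2 and -0.0043 for HSPA1B. With all libraries 2 of 15 mitochondrially encoded genes fell and 1 rose. Empty vector 2, the lone empty vector library of the fit without the 3 libraries, had the highest mitochondrial share of counts, 1.748%. Empty vector 1 and 3 had 1.508% and 1.416%, and the CSNK2B vector libraries 1.477%, 1.569% and 1.493%. Changes of mitochondrially encoded genes in that fit therefore rest on 1 empty vector library. KRT8, KRT18 and KRT19, whose levels differ widely between libraries of a group, lost their calls with DESeq2 (adjusted p = 0.247, 0.309 and 0.497).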

Other observations

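Signalling genes outside the groups above moved in both directions. Of 33 tested genes of the program downstream of ALK and STAT3, 9 rose and 10 fell, and without the 3 libraries with more GFAP and keratin transcripts 8 rose and 6 fell. ALK itself rose from 377, 362 and 366 CPM to 422, 419 and 427 CPM (log2 change 0.20, SE 0.03, adjusted p = 7.63e-05), and JAK3, a kinase of cytokine receptors, fell from 425, 449 and 453 CPM to 353, 366 and 364 CPM (log2 change -0.29, SE 0.04). The groups did not overlap in either gene. Among the 33 genes of the program 57.6% were called, beside 35.7% of all genes tested. The list was not matched for level, and in the highest of the 4 level classes 38.6% of genes rose and 18.5% fell. STAT5B and PIM1 fell by 0.30 (SE 0.04) and 0.21 (SE 0.04). Of 26 tested genes of the PI3-kinase and AKT pathway, 6 rose and 5 fell (5 and 4 without those libraries), 42.3% of them beside 35.7% of all genes tested. PIK3AP1, an adaptor of PI3-kinase, fell from 2330, 2277 and 2347 CPM to 1807, 1820 and 1873 CPM (log2 change -0.34, SE 0.03), and PIK3CG, its gamma catalytic subunit, rose by 0.35 (SE 0.04).

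Of 20 tested genes of the Wnt pathway, 7 rose and 1 fell, 40% of them beside 35.7% of all genes tested, and without those libraries 5 rose and 0 fell. The median log2 change of the list was -0.04, with 9 members above 0 and 11 below 0. LRP6, a Wnt co-receptor, rose by 0.51 (SE 0.08) and CTNNB1, which encodes beta-catenin, by 0.12 (SE 0.03). Of 18 tested genes of the Notch pathway, 6 rose and 3 fell, 50% of them beside 35.7% of all genes tested, NOTCH2 rising by 0.27 (SE 0.04). Of 21 tested p53 targets, 3 rose and 5 fell, 38.1% beside 35.7% of all genes tested (3 and 7 without those libraries). The DNA damage binding gene DDB2 fell from 32.8, 31.4 and 32.1 CPM to 23.9, 22.8 and 20.5 CPM (log2 change -0.52, SE 0.07).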
